A study of Mus musculus with 20 samples.

Results

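The splicing factor genes described here are the 52 genes, of 22556 in the deposited table, whose names begin with Srsf and a number, Hnrnp, Sf3a or Sf3b and a number, Snrp or U2af. They comprise 11 SR protein genes, 18 hnRNP genes, 8 Sf3 genes, 12 Snrp genes and 3 U2af genes. New RNA was measured in E14, a wild-type line of mouse embryonic stem cells, cultured with serum and LIF. Transcripts made in a 10 min pulse of 4-thiouridine, at 150 µM, were isolated and sequenced (iTC-seq). Cells received DRB at 100 µM for 2 h or 5 h, triptolide at 10 µM for 1 h or 2 h, or no drug (0 h), and each of these 5 conditions had 2 labelled samples and 2 samples without 4-thiouridine. DRB inhibits the kinases that release RNA polymerase II into elongation, and triptolide blocks initiation through a helicase of TFIIH.

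Introns are removed by the spliceosome, which is assembled from small nuclear RNAs and their proteins. SR proteins bind exons and recruit that machinery, whereas many hnRNPs coat nascent RNA and block or shift splice sites. The Snrp genes make the Sm ring and proteins of the U1 and U2 particles, U2AF reads the end of the intron, and SF3A and SF3B hold U2 on the branch point. Many SR and hnRNP genes are known to limit their own mRNAs through exons that trigger decay, a step after transcription.

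The table holds 1 value per gene and condition (reads per kb, the number of reads over the length of the gene, with negatives replaced by 0). No value therefore has a replicate error and no difference has a test. Net reads were recovered from the steps of the values, and brackets hold 95% intervals of a percentage that treat net reads as plain counts. Net reads are differences, since negatives occurred, so their counting error is larger than these intervals show. Net reads of all genes summed to 1256894 without drug and to between 62512 and 336052 in the 4 drug columns. Whether read numbers were equalised between columns is not given in the sources used here, so a lower sum cannot be told apart from a shallower column, nor fewer cells from less RNA per cell. The stem cell genes Pou5f1, Sox2 and Nanog had 62.5, 69.6 and 29.96 reads per kb without drug. Strand use in counting is not stated, and 15 of the 52 genes overlap another protein-coding gene, 11 of them one on the opposite strand, such as Mfsd11 and Mettl23 at Srsf2, Phykpl at Hnrnpab, Cox20 at Hnrnpu, Cog4 at Sf3b3 and Ccdc38 at Snrpf. Reads of such pairs, and reads shared with paralogues or processed pseudogenes, cannot be told apart here.

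Without drug the splicing factor genes had high levels per length. Their median was 13.4 reads per kb, against 3.44 over the 8773 genes that exceeded 1 read per kb in at least 1 condition, and 47 of 52 exceeded that second median. SR genes had a median of 26.8, U2af genes 25.7, Snrp genes 13.5, hnRNP genes 13.3 and Sf3 genes 10.2 reads per kb. The families overlapped, with levels from 0.0821 to 111 in SR genes, 2.89 to 59.7 in hnRNP genes, 0.342 to 30.2 in Snrp genes and 6.502 to 19.7 in Sf3 genes. The 52 genes lie on 18 chromosomes, and 50 passed the minimum of 1 read per kb, all of them in the column without drug. Srsf12 and Snrpn did not pass.

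Promoter windows are shown for genes that ended far apart after 2 h DRB within a family, and for U2af1, which had most net reads after 1 h triptolide. RefSeq windows on GRCm38.p6, from 250 bases before to 50 after the start, were found for 46 members, and Hnrnpul2, Sf3b4, Sf3b5, Snrpb, Snrpd1 and U2af2 are named only. Capitals mark matches to 6 motifs on either strand.
Hnrnpa0, chr13:58128507-58128806, minus strand: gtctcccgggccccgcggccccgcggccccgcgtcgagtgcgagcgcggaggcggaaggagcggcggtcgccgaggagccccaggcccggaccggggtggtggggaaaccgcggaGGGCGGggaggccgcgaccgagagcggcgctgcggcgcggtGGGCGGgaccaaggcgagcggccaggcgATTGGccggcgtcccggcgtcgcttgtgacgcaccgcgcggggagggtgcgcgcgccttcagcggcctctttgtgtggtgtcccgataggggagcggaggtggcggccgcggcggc
Hnrnpa2b1, chr6:51469845-51470144, minus strand: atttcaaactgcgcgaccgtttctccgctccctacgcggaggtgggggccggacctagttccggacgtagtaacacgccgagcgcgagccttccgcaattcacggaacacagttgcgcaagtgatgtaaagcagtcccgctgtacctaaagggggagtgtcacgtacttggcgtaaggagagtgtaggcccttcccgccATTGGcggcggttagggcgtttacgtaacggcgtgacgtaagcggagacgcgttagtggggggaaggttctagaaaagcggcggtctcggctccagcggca
Snrpg, chr6:86371290-86371589, plus strand: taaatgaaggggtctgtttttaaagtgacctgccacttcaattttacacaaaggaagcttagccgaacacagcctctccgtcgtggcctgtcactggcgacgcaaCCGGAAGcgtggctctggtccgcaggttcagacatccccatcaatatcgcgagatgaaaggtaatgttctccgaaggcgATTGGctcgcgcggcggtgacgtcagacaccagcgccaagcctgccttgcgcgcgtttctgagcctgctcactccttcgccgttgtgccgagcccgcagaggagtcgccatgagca
Snrpf, chr10:93589609-93589908, minus strand: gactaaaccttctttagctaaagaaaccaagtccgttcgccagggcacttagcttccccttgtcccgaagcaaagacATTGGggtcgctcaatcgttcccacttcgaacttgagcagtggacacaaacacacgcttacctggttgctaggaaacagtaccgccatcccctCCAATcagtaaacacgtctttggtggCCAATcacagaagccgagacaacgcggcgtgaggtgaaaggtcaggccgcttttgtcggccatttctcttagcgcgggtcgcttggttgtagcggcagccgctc
U2af1, chr17:31658715-31659014, minus strand: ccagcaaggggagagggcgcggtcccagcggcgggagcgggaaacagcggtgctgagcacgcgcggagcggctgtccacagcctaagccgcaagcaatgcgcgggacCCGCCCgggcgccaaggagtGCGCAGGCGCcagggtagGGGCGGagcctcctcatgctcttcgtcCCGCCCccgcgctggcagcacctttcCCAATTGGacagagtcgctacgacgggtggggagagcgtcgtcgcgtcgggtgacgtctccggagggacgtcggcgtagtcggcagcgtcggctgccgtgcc
The Hnrnpa0 window holds 2 GC boxes and 1 CCAAT box, and the Hnrnpa2b1 window 1 CCAAT box. The Snrpg window holds 1 CCAAT box and 1 ETS core, and the Snrpf window 3 CCAAT boxes. In the U2af1 window there are 3 GC boxes, 1 NRF1 site and 2 CCAAT boxes that overlap. A match describes letters only.

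The 46 windows were rich in CpG, with a median of 25 CpG and 60.2% GC, against 7 and 52.7% over all 32851 windows. The GC box, GGGCGG, was in 31 (67.4%) against 35.7% of all windows, and in 10 of 11 SR windows. The ETS core, CCGGAAG, was in 15 (32.6%) against 8.86%, and the palindromic NRF1 site in 7 (15.2%) against 4.603%. The CCAAT box, CCAAT, was in 22 (47.8%) against 37.4%, the YY1 site, AAGATGGC, in 2 (4.35%) against 2.75%, and the TATA box, TATAAA, in 6 (13.04%) against 13.6%. These shares have no test, and the 32851 windows were not limited to expressed genes. The windows of Hnrnpk, Snrpa1, Hnrnpm, Snrpc and Hnrnpl lay 1226 to 2349 bases from the annotated gene start.

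After 2 h DRB, 44 of the 52 genes were lower than without drug by at least 1 on the scale log2(value + 1), the size rule used throughout, and none was higher. Over the 8773 genes compared 66.1% were lower and 2.2% higher. The median log2 difference was -1.81 for the members and -1.27 over all genes, on a scale that understates low genes. With 0.1 added to the values in place of 1, the medians were -2.13 for members that passed the minimum and -2.12 over all genes. With columns scaled to equal medians, which moved the median of all genes to -0.25, 14 members were lower and 1 higher, beside 23.1% and 13.1% of all genes, so the count depends on the scale of the columns. The 8 genes within the size rule were Srsf12, Hnrnpa0, Hnrnpu, Hnrnpul2, Sf3b2, Sf3b5, Snrpg and Snrpn. Srsf12 and Snrpn, below 1 read per kb without drug, could not be lower by the size rule in any drug column. In net reads the members kept 23.4% (22.5 to 24.4) and all genes compared 25.96% (25.9 to 26.1). Single members were far apart: the 46 with at least 50 net reads without drug ran from 2.06% to 55.6%, a 26.9-fold range around a median of 21.9%. The size of this fold is uncertain, since the low end, Snrpf, had 2 net reads of 97 (0.246 to 7.65). The high end, Hnrnpa0, had 35 of 63 (35.7 to 85.3).

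**Figure D1:**
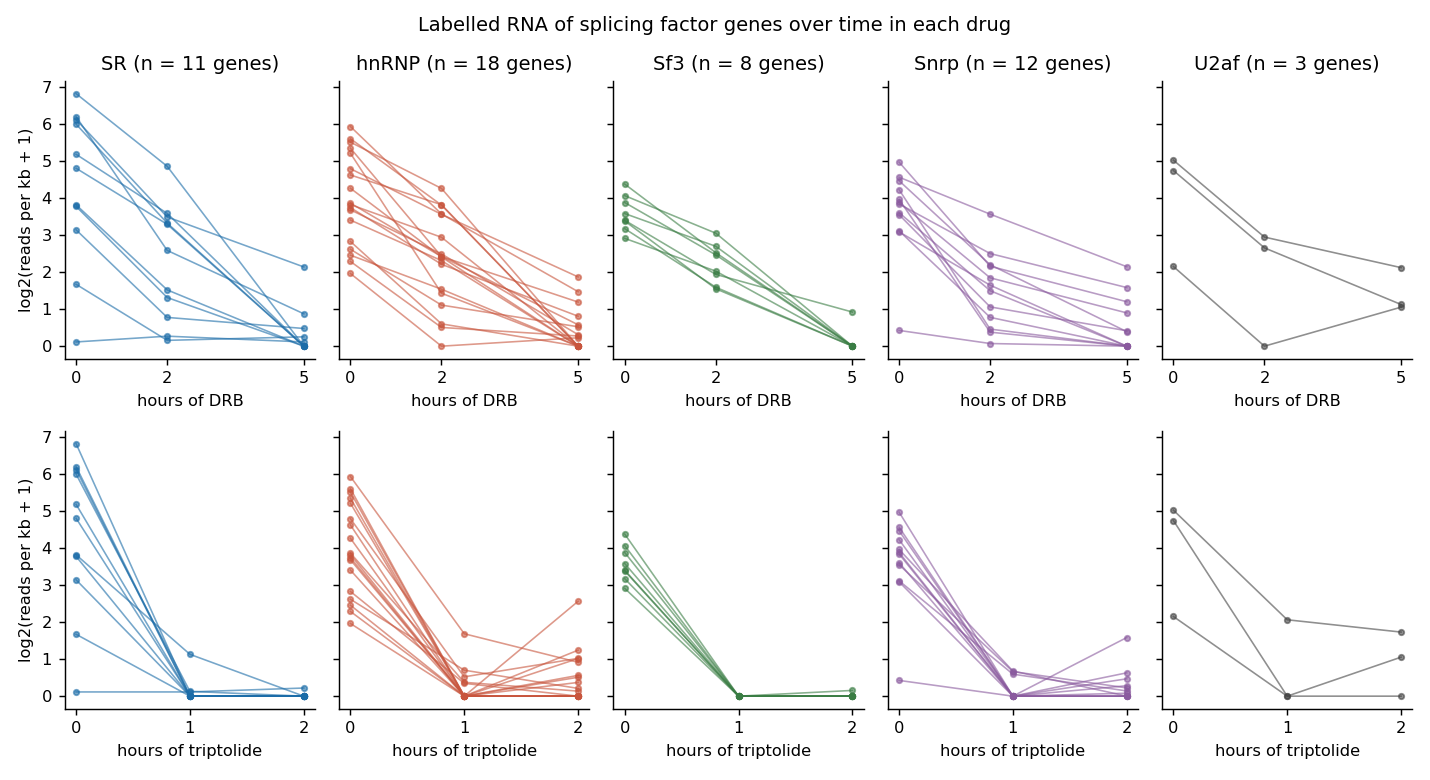
Levels of the 52 genes, as log2 of reads per kb plus 1, against hours of drug, with 1 line per gene, a column for each of the 5 families, DRB above and triptolide below. Of the 52 genes, 2 are listed at 0 after 2 h DRB, 28 after 5 h DRB, 40 after 1 h triptolide and 31 after 2 h triptolide.

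Among SR genes, Srsf2, which makes the nuclear speckle protein SC35, had the highest level of all 52 genes, with 27.9 reads per kb at 2 h DRB against 111 without drug, with 0 listed in the 3 remaining columns. It kept 25.1% (19.6 to 31.7) after 2 h DRB. Srsf1, the founding SR protein, had 10.97 reads per kb at 2 h DRB against 35.1 without drug, with 0 listed in the 3 remaining columns, and Srsf6 had 8.76 reads per kb at 2 h DRB against 26.8 without drug, with 0 listed in the 3 remaining columns. Their shares after 2 h DRB, 31.2% (23.5 to 41.04) and 32.7% (23.2 to 45.4), were the highest of the family and overlapped that of Srsf2 within their intervals.

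Srsf7, an SR protein with a zinc knuckle, had 72.1, 4.99 and 0.831 reads per kb at 0, 2 and 5 h DRB, with 0 listed at both triptolide times, and kept 6.92% (4.795 to 9.71) after 2 h DRB. Srsf5 had 68.2, 10.2 and 3.398 reads per kb at 0, 2 and 5 h DRB, with 0 listed at both triptolide times, and kept 14.96% (10.9 to 20.1). Srsf3, an mRNA export adaptor like Srsf7, gave 8.98 reads per kb with DRB against 62.5 without, or 14.4% (11.5 to 17.8). The intervals of Srsf3, Srsf5 and Srsf7 lay below those of Srsf1 and Srsf6, so these shares differed by more than their intervals. Srsf4 kept 9.13% (5.47 to 14.5), Srsf10 11.7% (7.09 to 18.5) and Srsf9, a close relative of Srsf1, 14.3% (6.85 to 27.01). Srsf11 had 2.18, 0.115 and 0.191 reads per kb at 0, 2 and 5 h DRB, with 0 listed at both triptolide times, with 3 net reads of 57 left after 2 h DRB. Srsf12 had 5 net reads with DRB against 2 without, too few to compare.

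The 16 hnRNP genes with at least 50 net reads without drug ran from 4.72% to 55.6% after 2 h DRB. Hnrnpa0, a gene with no introns, had 13.1 reads per kb at 2 h DRB against 23.5 without drug, with 0 listed in the 3 remaining columns, and kept 55.6% (35.7 to 85.3) after 2 h DRB. Its relative Hnrnpa2b1 had 1.69 reads per kb at 2 h DRB against 35.8 without drug, with 0 listed in the 3 remaining columns, and kept 4.72% (2.67 to 7.78). Hnrnpa1, a well-known splicing silencer, had 59.7, 10.8 and 1.77 reads per kb at 0, 2 and 5 h DRB, and 2.21 and 0.884 at 1 and 2 h triptolide, and kept 18.1% (13.1 to 24.7); its number of reads is uncertain because its length came from the step alone. Hnrnpab had 44.3, 18.1 and 0 reads per kb at 0, 2 and 5 h DRB, and 0 and 4.89 at 1 and 2 h triptolide, and kept 40.8% (32.8 to 50.5). Hnrnpd, which binds AU-rich RNA, kept 41.3% (31.5 to 53.8) and Hnrnpa3 32.1% (22.3 to 45.4). The intervals of Hnrnpa1 and Hnrnpa2b1 did not meet those of Hnrnpab and Hnrnpd, so A/B relatives stood apart.

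The hnRNP U group, scaffold-associated RNA-binding proteins, kept 42.9% (37.1 to 49.4) together. Hnrnpu had 6.66 reads per kb at 2 h DRB against 13.1 without drug, with 0 listed in the 3 remaining columns, and kept 50.8% (39.4 to 65.1), beside 39.03% (32.2 to 47.2) for Hnrnpul1 and 42.4% (26.2 to 66.9) for Hnrnpul2. Hnrnpf, which binds runs of G, had 26.6, 10.8 and 2.65 reads per kb at 0, 2 and 5 h DRB, and 0.435 and 1.03 at 1 and 2 h triptolide, and kept 40.4% (34.98 to 46.6), while its relative Hnrnph1 kept 23.7% (16.4 to 33.5). Hnrnph3 gave 0.419 reads per kb with DRB against 3.87 without, and Hnrnph2 was listed at 0 with DRB against 2.89 without.

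Of the other hnRNP genes, Hnrnpl, which binds CA repeats, had 12.97 reads per kb at 2 h DRB against 47.4 without drug, with 0 listed in the 3 remaining columns, and kept 27.4% (23.1 to 32.4). Hnrnpc, which binds U tracts, kept 29.4% (23.5 to 36.4) and Hnrnpr 22.6% (15.3 to 32.4). Hnrnpk, which binds poly-C, gave 4.34 reads per kb with DRB against 39.5 without, or 10.996% (8.12 to 14.6). Hnrnpm had 6.08, 0.517 and 0 reads per kb at 0, 2 and 5 h DRB, and 0.271 and 0 at 1 and 2 h triptolide, and kept 8.502% (5.17 to 13.3), so Hnrnpk, Hnrnpm and Hnrnpa2b1 were the hnRNP genes whose intervals lay wholly below the median gene.

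The Sf3 genes were more even after 2 h DRB, with the 7 members of at least 50 net reads between 20.5% and 47.1%, a 2.302-fold range. Sf3b3 had 4.74 reads per kb at 2 h DRB against 19.7 without drug, with 0 listed in the 3 remaining columns, and kept 24.1% (20.2 to 28.5). Sf3b4 had 7.26 reads per kb at 2 h DRB against 15.7 without drug, with 0 listed in the 3 remaining columns, and kept 46.3% (30.7 to 68.9). Sf3b1, the subunit that clamps the branch point, gave 2.01 reads per kb with DRB against 7.99 without, or 25.1% (19.6 to 31.99). The interval of Sf3b3 did not meet that of Sf3b4, while that of Sf3b1 overlapped both.

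Sf3b2 had 3.07 reads per kb at 2 h DRB against 6.502 without drug, with 0 listed in the 3 remaining columns, and kept 47.1% (34.6 to 63.6). Its interval did not meet those of Sf3b1 and Sf3b3. In SF3A, Sf3a1 had 4.51 reads per kb at 2 h DRB against 13.7 without drug, with 0 listed in the 3 remaining columns, and kept 33.003% (26.1 to 41.5), Sf3a2 kept 29.7% (16.8 to 50.2), and Sf3a3 had 9.39, 1.92 and 0 reads per kb at 0, 2 and 5 h DRB, and 0 and 0.113 at 1 and 2 h triptolide, with 20.5% (13.7 to 29.8) kept. Sf3b5, the smallest SF3B subunit, gave 5.46 reads per kb with DRB against 10.9 without, and its number of reads is uncertain because 9 lengths match its steps. Over the 5056 genes compared with at least 50 net reads without drug, the interval lay wholly above the 20% of the median gene in 28.2% and wholly below it in 29.6%. The 46 members had a median of 194 net reads without drug, and these 5056 genes 131. Of 7 Sf3 intervals 4 lay wholly above and 0 wholly below it.

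Snrp genes of the Sm ring also stood apart from each other. The Sm core, the ring of proteins around each small nuclear RNA, kept 21.3% (18.3 to 24.8) over its 7 genes. Snrpg had 22.5, 10.8 and 3.42 reads per kb at 0, 2 and 5 h DRB, and 0 and 0.547 at 1 and 2 h triptolide, and kept 47.9% (36.1 to 62.98) after 2 h DRB. Its ring partner Snrpf had 14.5, 0.2995 and 0 reads per kb at 0, 2 and 5 h DRB, and 0.599 and 0 at 1 and 2 h triptolide, and kept 2.06% (0.246 to 7.65). Snrpb, which makes SmB, had 0.376 reads per kb at 2 h DRB against 17.6 without drug, with 0 listed in the 3 remaining columns, and kept 2.13% (0.434 to 6.35).

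Between them, Snrpd3 had 2.13 reads per kb at 2 h DRB against 7.47 without drug, with 0 listed in the 3 remaining columns, and kept 28.5% (19.2 to 41.3), Snrpd1 kept 18.9% (13.8 to 25.3) and Snrpd2 4.65 reads per kb with DRB against 13.3 without. Snrpe had 21.03, 3.58 and 0.312 reads per kb at 0, 2 and 5 h DRB, with 0 listed at both triptolide times, and kept 17.04% (10.4 to 26.6). The interval of Snrpg did not meet those of Snrpb, Snrpd1, Snrpe and Snrpf. The U1 gene Snrpa had 30.2, 3.45 and 1.295 reads per kb at 0, 2 and 5 h DRB, and 0 and 0.216 at 1 and 2 h triptolide, and kept 11.4% (7.67 to 16.5), beside 10.2% (5.26 to 17.99) for the U1 gene Snrpc. The U2 genes Snrpa1 and Snrpb2 kept 16.4% (10.4 to 24.9) and 9.33% (3.63 to 20.2). Snrpn, an imprinted relative of Snrpb, gave 0.0507 reads per kb with DRB against 0.342 without; its identifier has another name in GENCODE M21 and its counted length exceeds the annotated one.

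The shares kept by both U2AF subunits after 2 h DRB overlapped within their intervals. U2af1, which reads the AG at the intron end, had 31.4, 6.68 and 3.34 reads per kb at 0, 2 and 5 h DRB, and 3.17 and 2.31 at 1 and 2 h triptolide, and kept 21.3% (16.5 to 27.3). U2af2, which binds the polypyrimidine tract, had 25.7, 5.28 and 1.18 reads per kb at 0, 2 and 5 h DRB, with 0 listed at both triptolide times, and kept 20.6% (16.3 to 25.7). Their relative U2af1l4 had 3.43, 0 and 1.07 reads per kb at 0, 2 and 5 h DRB, and 0 and 1.07 at 1 and 2 h triptolide, on 16 net reads or fewer.

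**Figure D2:**
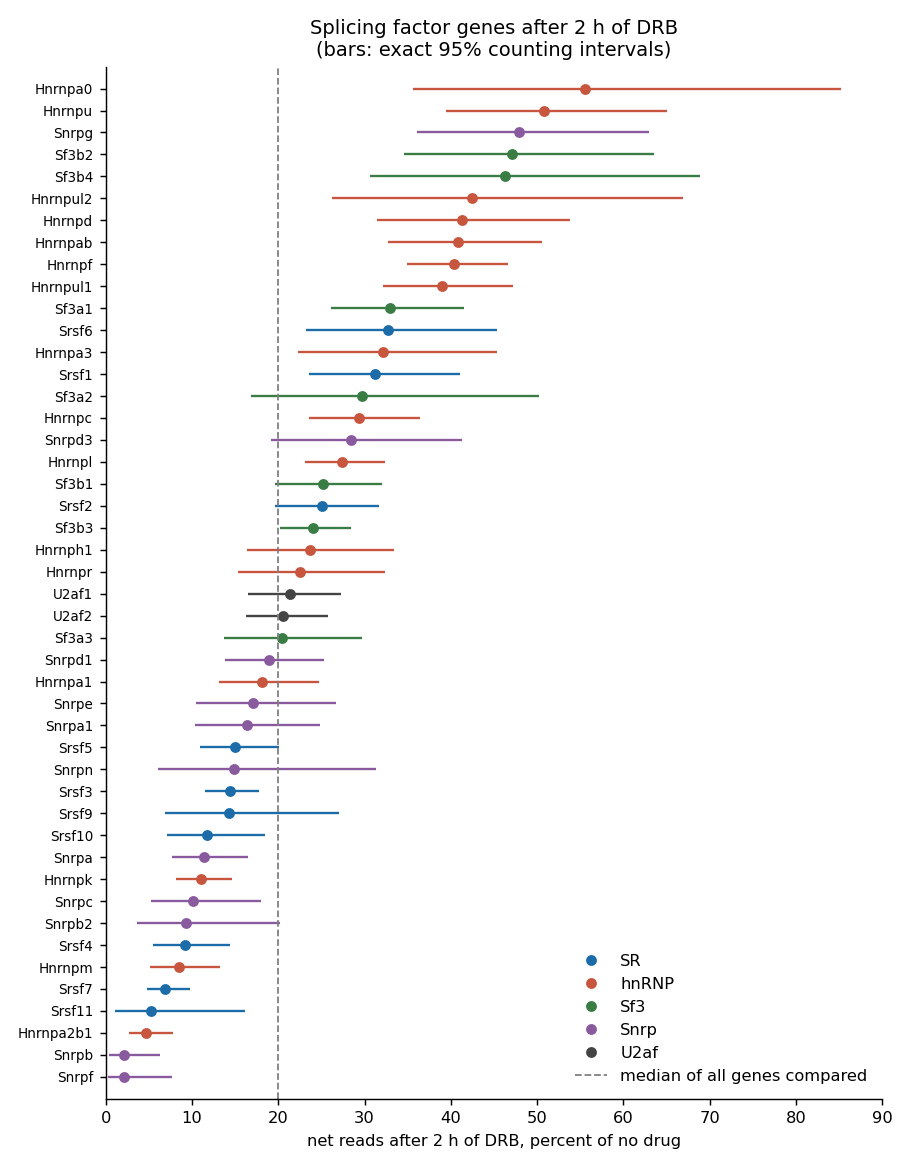
Net reads after 2 h DRB as percent of no drug for the 46 members with at least 50 net reads without drug, sorted, with 95% counting intervals as lines, families in colour and the 20% median of all genes compared as a dashed line. Intervals lie wholly above the line in 17 genes, wholly below it in 12 and across it in 17, where 28.2% and 29.6% of the 5056 genes with as many reads lie above and below.

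By family, SR genes kept 16.2% (14.6 to 17.8) and Snrp genes 17.6% (15.5 to 19.96) of their net reads after 2 h DRB, against 28.1% (26.4 to 29.9) for hnRNP genes and 28.9% (26.2 to 31.9) for Sf3 genes. The intervals of SR and Snrp genes lay below those of hnRNP and Sf3 genes, and no replicate spread is there to test this. Intervals lay below the median gene in 5 of 10 SR genes and above it in 2, and in 3 and 10 of 16 hnRNP genes. Single genes crossed the family order, in some pairs beyond their intervals. Srsf1 and Srsf6 were above the median hnRNP gene (30.7%), which the intervals of both spanned. Both intervals lay wholly above those of Hnrnpk, Hnrnpm and Hnrnpa2b1. Snrpg was above each of the 7 Sf3 genes with at least 50 net reads without drug. Its interval lay wholly above those of Sf3a3, Sf3b1 and Sf3b3, and overlapped those of Sf3a1, Sf3a2, Sf3b2 and Sf3b4. Sf3b5, with fewer net reads, stood at 50%. Without the gene holding most reads, Snrp genes kept 14.4%, SR genes 16.7%, hnRNP genes 26.1% and Sf3 genes 31.98%.

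**Figure D3:**
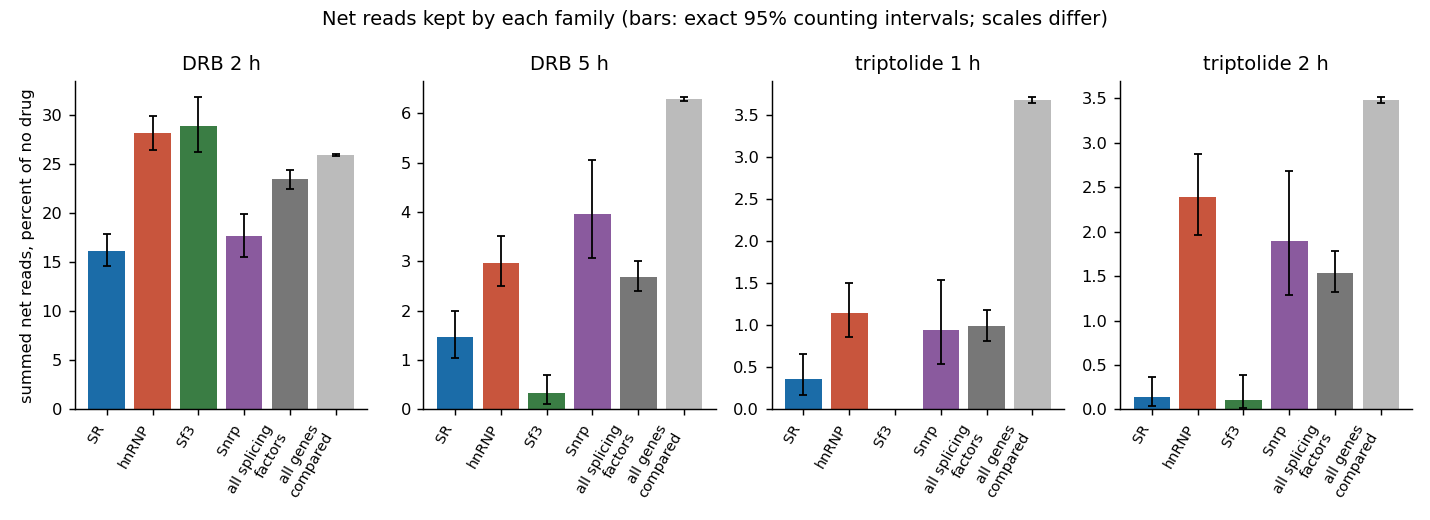
Summed net reads of each family, of the 52 splicing factor genes and of all genes compared, as percent of no drug, in 4 panels for the drug columns, with 95% counting intervals and scales that differ between panels. After 2 h DRB SR and Snrp genes stand at 16.2% and 17.6%, and hnRNP and Sf3 genes at 28.1% and 28.9%.

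After 5 h DRB, 50 of 52 genes were lower than without drug by the size rule and none higher, against 85.5% and 1.03% of all genes compared. The median log2 difference was -3.49 for the members and -1.86 over all genes. For a gene listed at 0 this difference is set by its level without drug alone. Levels without drug had a median of 13.4 reads per kb in the members and 3.44 over all genes compared. The members kept 2.69% (2.397 to 3.002) of net reads and all genes compared 6.29% (6.24 to 6.33). Of the 52, 28 were listed at 0, against 47.8% of all genes. Negative values were replaced by 0, so a listed 0 gives no fold and no upper limit, and the upper end of a sum's interval is no limit where genes in the sum are listed at 0.

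The Sf3 family kept the least at 5 h DRB, 0.324% (0.119 to 0.707). All of it, 6 net reads, was in Sf3a2, a subunit of SF3A, with 0.892 reads per kb against 9.52 without drug, and the other 7 genes were listed at 0. Relative to 2 h DRB, Sf3 genes kept 1.12% (0.4097 to 2.46), SR genes 9.09% (6.44 to 12.5), hnRNP genes 10.6% (8.83 to 12.6) and Snrp genes 22.5% (16.98 to 29.4), while all genes compared kept 24.2% (24.01 to 24.4). Between these times 35 of 52 genes were lower and 1 higher by the size rule, against 29.7% and 1.13% of all genes; the higher one was U2af1l4.

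SR genes kept 1.47% (1.05 to 1.997) at 5 h DRB, or 0.979% without Srsf5. Srsf1, Srsf2 and Srsf6, which kept the largest SR shares at 2 h, were listed at 0, as were Srsf3, Srsf9 and Srsf10. hnRNP genes kept 2.97% (2.498 to 3.51), or 1.83% without Hnrnpf, whose 67 net reads were the most of any member. Hnrnpa0, Hnrnpab, Hnrnpl and Hnrnpu were listed at 0.

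Snrp genes kept 3.96% (3.06 to 5.06), or 2.75% without Snrpg. Snrpg itself kept 15.2% (9.53 to 23.2), the highest share among the 46 members, beside 6.29% (3.68 to 10.1) for Snrpd1 and 4.29% (2.19 to 7.61) for Snrpa. The 3 U2af genes kept 7.75% (5.92 to 9.98), with U2af1 at 10.7% (7.45 to 14.8) and U2af2 at 4.595% (2.82 to 7.11). Without U2af1 they kept 5.497% (3.55 to 8.16), which overlapped the interval of Snrp genes.

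After 1 h triptolide, 50 of 52 genes were lower by the size rule and none higher, against 87.9% and 0.787% of all genes compared, and 40 were listed at 0 against 59.6%. The median log2 difference was -3.75 for the members and -1.98 over all genes, again set by the level without drug in genes listed at 0. The members kept 0.988% (0.817 to 1.18) of net reads and all genes compared 3.68% (3.64 to 3.72). All 8 Sf3 genes were listed at 0. SR genes kept 0.358% (0.172 to 0.6597), with 7 of their 10 net reads in Srsf9, Snrp genes 0.947% (0.5399 to 1.54) and hnRNP genes 1.15% (0.866 to 1.502).

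U2af1 held 37 of the members' 118 net reads after 1 h triptolide, and kept 10.1% (7.01 to 14.2) at 1 h and 7.38% (4.795 to 10.9) at 2 h. Its partner U2af2 was listed at 0 at both times, which gives no upper limit, so the shares of these partners cannot be compared under triptolide. Hnrnpr had 5.12, 1.16 and 0.437 reads per kb at 0, 2 and 5 h DRB, and 0.624 and 0.156 at 1 and 2 h triptolide, and kept 12.2% (7.26 to 19.5) at 1 h; its length came from the step alone. Hnrnpf and Hnrnpm had 11 net reads each.

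After 2 h triptolide, 49 of 52 genes were lower by the size rule and none higher, against 87% and 0.866% of all genes compared, and 31 were listed at 0 against 49.7%. With quantile normalization 30 were lower and 4 higher, beside 17.3% and 16.6% of all genes. The median log2 difference was -3.64 for the members and -1.92 over all genes, again set by the level without drug in genes listed at 0. The members kept 1.54% (1.32 to 1.78) and all genes compared 3.48% (3.45 to 3.52). hnRNP genes kept 2.39% (1.96 to 2.87) and Snrp genes 1.89% (1.29 to 2.68). SR genes kept 0.143% (0.03901 to 0.367), all in Srsf12, and Sf3 genes 0.108% (0.0131 to 0.391), all in Sf3a3. Snrpn, with 9 net reads against 54 without drug, had the highest share of the 46 members, 16.7% (7.23 to 34.04).

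The net reads of the 52 genes summed to 184 at 2 h triptolide, against 118 at 1 h, while the sum over the 8773 genes compared at 2 h was 94.7% (93.4 to 95.98) of that at 1 h. By the size rule 5 members were higher at 2 h than at 1 h and 1 lower, against 3.35% and 3.03% of all genes. Hnrnpab had 33 net reads at 2 h and was listed at 0 at 1 h. Hnrnph1, Hnrnph2, Snrpd2 and U2af1l4 had 5 to 13 net reads at 2 h and were also listed at 0 at 1 h, and Srsf9 was the lower one. These numbers are small, and without Hnrnpab hnRNP genes kept 1.81% of no drug at 2 h. The members' sum at 2 h was 156% (123 to 198) of that at 1 h. Without Hnrnpab it was 128% (99.9 to 164), an interval that reaches below 100%.

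**Figure D4:**
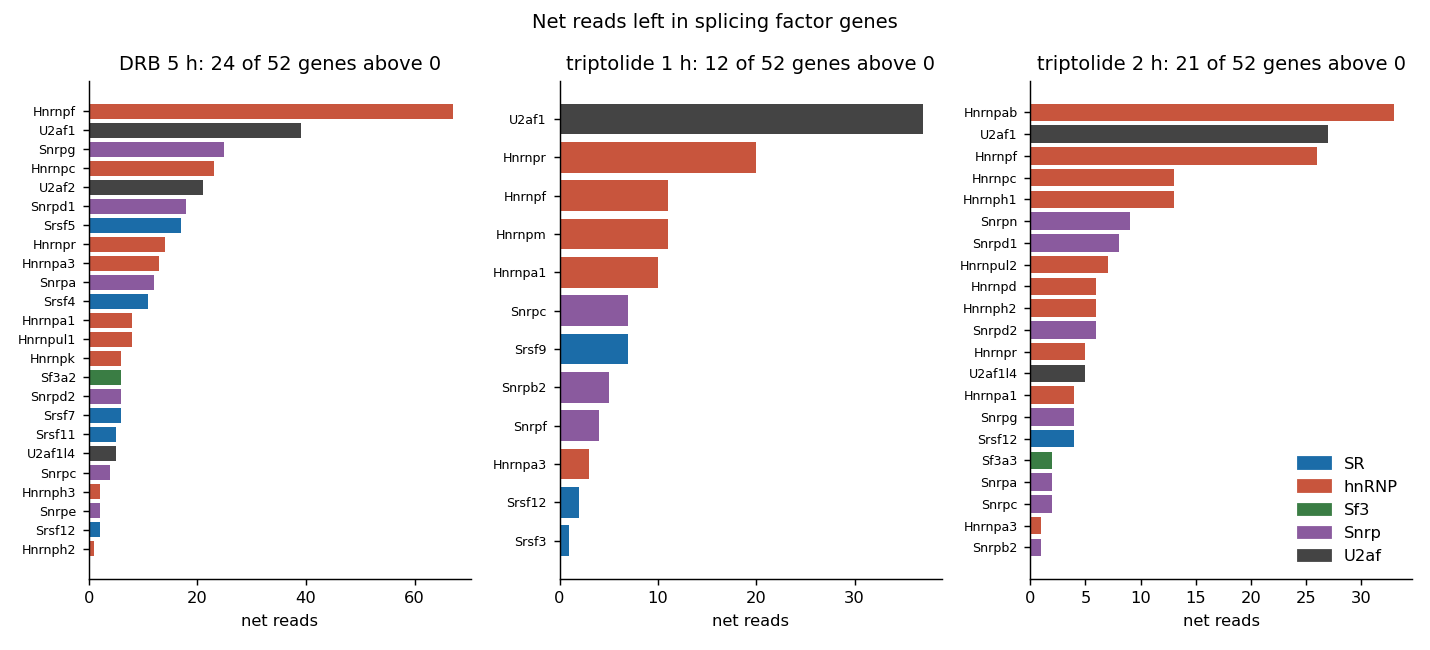
Net reads of each splicing factor gene above 0 after 5 h DRB, 1 h triptolide and 2 h triptolide, in bars coloured by family, with scales that differ between panels. Hnrnpf leads with 67 after 5 h DRB, U2af1 with 37 after 1 h triptolide and Hnrnpab with 33 after 2 h triptolide.

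Across 5 h DRB and both triptolide times, 17 of 52 genes were listed at 0 throughout: Srsf1, Srsf2, Srsf6, Srsf10, Hnrnpa0, Hnrnpa2b1, Hnrnpl, Hnrnpu, Sf3a1, all 5 SF3B genes, Snrpa1, Snrpb and Snrpd3. Of all genes compared 21.2% were. The 7 genes above 0 in all 4 drug columns, as 18.2% of all genes were, comprised Hnrnpa1, Hnrnpa3, Hnrnpf, Hnrnpr, Snrpc, U2af1 and, on a few reads, Srsf12.

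The members' share of all net reads does not depend on a common factor per column, but it does depend on what genes of other levels kept. After 1 h triptolide, all genes above 1 and up to 3 reads per kb without drug kept 7.39%, and those above 30 kept 1.25%. Without drug the members' share was 0.951% (0.934 to 0.968). It was 0.833% (0.802 to 0.864) after 2 h and 0.336% (0.30003 to 0.374) after 5 h DRB. After 1 h and 2 h triptolide it was 0.159% (0.132 to 0.191) and 0.294% (0.253 to 0.34001). After 2 h DRB SR genes held 0.134% (0.122 to 0.147) against 0.222% (0.214 to 0.231) without drug, and Snrp genes 0.0887% (0.0789 to 0.0993) against 0.134% (0.128 to 0.141). The shares of hnRNP genes, 0.3996% (0.379 to 0.422) against 0.37998% (0.369 to 0.391), and of Sf3 genes, 0.159% (0.146 to 0.173) against 0.147% (0.141 to 0.154), overlapped within their intervals.

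Genes of low level kept larger shares in the triptolide columns, so members were also set beside genes of like level without drug. The 13 members above 3 and up to 10 reads per kb kept 23.6% (21.2 to 26.2) after 2 h DRB against 23.9% of all genes in the class. The 23 members above 10 and up to 30 kept 28.5% (26.9 to 30.2) against 27.4%, and 3.62% (3.11 to 4.19) against 4.19% after 5 h DRB. The 12 members above 30, of which 5 were SR genes, kept 18.1% (16.9 to 19.5) against 29.8% after 2 h DRB and 1.84% (1.47 to 2.27) against 4.81% after 5 h. The lowest of these 3 classes kept 2.05% (1.44 to 2.82) against 5.92% after 5 h DRB. After 1 h triptolide the members kept 1.94% (1.35 to 2.69) against 3.21% of all genes above 3 and up to 10, 0.6196% (0.423 to 0.876) against 1.23% above 10 and up to 30, and 1.001% (0.737 to 1.33) against 1.25% above 30. After 2 h triptolide they kept 1.399% (0.912 to 2.06) against 3.48%, 1.41% (1.11 to 1.78) against 1.63% and 1.38% (1.06 to 1.75) against 1.51% in the same classes. At the triptolide times the value of all genes lay above the members' interval in the lowest class at both times and in the middle class at 1 h. It lay within it otherwise. In the lowest class 10 and 7 of 13 members were listed at 0 at 1 and 2 h, and in the middle class 18 of 23 at 1 h. The upper ends of these intervals are therefore no limits, so this cannot show that members kept less. Members were also listed at 0 in each class after 5 h DRB, where the same holds.

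**Figure D5:**
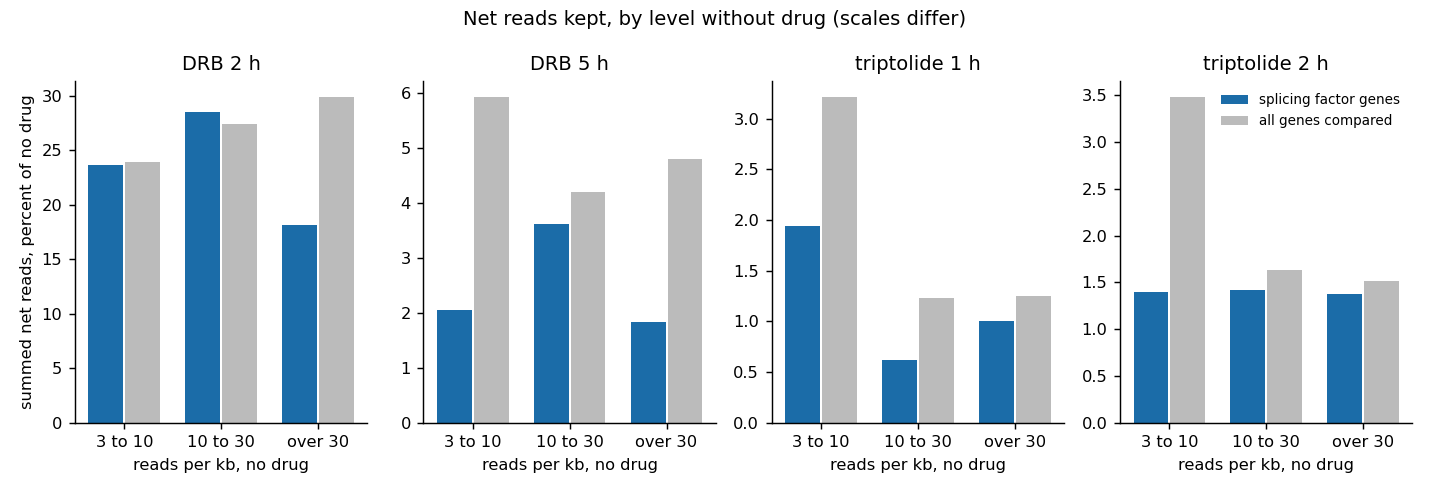
Summed net reads as percent of no drug for splicing factor genes and for all genes compared in 3 classes of level without drug, in reads per kb, with a panel per drug column and scales that differ. Above 30 reads per kb the members stand at 18.1% after 2 h DRB and all genes at 29.8%.

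After 2 h DRB, length showed little relation to the share kept. Counted lengths had a median of 7.22 kb in SR genes, 9.54 kb in Snrp genes, 12.96 kb in hnRNP genes and 19.6 kb in Sf3 genes, against 15.8 kb over all genes compared. Over 46 members Spearman's rho of the share kept after 2 h DRB was -0.000802 with length and -0.01104 with level without drug. Over 5056 genes with at least 50 net reads without drug these were -0.0864 and 0.1096. The points share the same pair of columns and are not independent. The 18 members of 5 to 10 kb kept 18.8% and the 14 of 20 to 50 kb 28.7%, against 28.7% and 26.3% of all genes in those classes. Zeros in later columns did go with length over all genes compared. After 5 h DRB 61.3% of genes under 5 kb and 30.3% of those over 50 kb were listed at 0. After 2 h triptolide these were 65.2% and 34.7%.

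Other spliceosome genes, a list in which 73 genes were matched and Lsm8 was not analysed here, had 56 lower and none higher by the size rule after 2 h DRB, 69 lower after 5 h DRB, 72 after 1 h and 69 after 2 h triptolide. All 73 passed the minimum, and over all genes compared 66.1%, 85.5%, 87.9% and 87% were lower in these columns. They kept 30.6% (29.5 to 31.7) of net reads at 2 h and 8.64% (8.102 to 9.21) at 5 h DRB, the second 4.74% without Rbm17. Prpf8, a core protein of the catalytic centre, had 12.8 reads per kb at 2 h DRB against 10.3 without drug, with 0 listed in the 3 remaining columns, or 125% (105 to 149) at 2 h DRB. Snrnp200, the helicase that unwinds U4 from U6, had 6.11 reads per kb at 2 h DRB against 6.49 without drug, with 0 listed in the 3 remaining columns, or 94.2% (77.1 to 115). Rbm17, which acts at the 3′ splice site, had 12.4, 11.6 and 25.5 reads per kb at 0, 2 and 5 h DRB, and 0.1603 and 0.748 at 1 and 2 h triptolide, and stood at 93.97% (77.7 to 114) of no drug at 2 h and 206% (176 to 242) at 5 h DRB, inside the size rule. The lowest shares among list members with at least 50 net reads without drug were those of Prpf18 at 2.99% (0.354 to 11.2), Rbm39 at 5.53% (3.38 to 8.57) and Puf60 at 5.58% (3.08 to 9.36).

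Splicing regulators outside the families, 34 rows of 33 genes because Qk has 2 identifiers, had 21 lower and none higher after 2 h DRB, 27 lower after 5 h DRB, 27 after 1 h and 26 after 2 h triptolide. Only 27 of the 34 rows passed the minimum, and the shares of all genes are those given for the other list. They kept 22.6% (21.4 to 23.9) at 2 h and 2.95% (2.55 to 3.398) at 5 h DRB. Pcbp1, a poly-C binding protein whose gene lacks introns, had 41.9 reads per kb at 2 h DRB against 32.9 without drug, with 0 listed in the 3 remaining columns, or 127% (88.1 to 185) at 2 h DRB. Khsrp kept 66.7% (51.2 to 86.4) and Khdrbs1, also called Sam68, 58.97% (47.4 to 73.1). Tra2b, an SR-like protein, had 22.7, 1.82 and 1.12 reads per kb at 0, 2 and 5 h DRB, and 0.326 and 0 at 1 and 2 h triptolide, or 7.99% (5.61 to 11.1), the kinase gene Clk3 kept 7.14% (3.62 to 12.8) and Ptbp2 2.597% (0.309 to 9.71).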

How the data were processed

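The 20 samples form 10 groups of 2, assigned from their titles. Bowtie and GRCm38/mm10 are named in the submitters' processing notes, and Ensembl 72 identifiers are used per the file headers. The deposited signal is in reads per kb, for protein-coding genes and with negatives replaced by 0, per the sheet name. There is 1 column per condition. How the authors combined replicates, used unlabelled samples or equalised depth is not given in the sources used here, so no test was run.

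Within a gene the values are whole multiples of 1000 over a length, which gave net reads. Of 17512 genes with signal, 10266 matched the GENCODE M21 span (end minus start), 6466 a length within 20% of it and 780 the step alone, whose reads may be a fraction of the true number. Among members these were 28, 19 and 5 (Hnrnpa1, Hnrnpr, Snrpd2, Snrpn and U2af1l4). The recovery was tested on simulated data. Genes over 1 read per kb in any column were compared on log2(value + 1). Intervals are exact 95% ones for a ratio of Poisson counts, or Clopper-Pearson for shares, and cover only part of the counting error, since net reads are differences. The 4 comparisons with no drug share that column.

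All 5 values are given for the 3 highest levels and the 2 highest and 2 lowest shares after 2 h DRB of each family, and for the 3 members with most net reads in each other drug column; from the wider lists, the 3 highest and 3 lowest shares are named. Shares were ranked among genes with at least 50 net reads without drug. The members and lists were chosen with earlier results of these data known, and motifs, printed windows and level classes after values were seen. Python 3.11.15, pandas 2.3.3, numpy 2.4.6, scipy 1.17.1 and matplotlib 3.10.9 were used.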

Additional observations from a re-analysis of the deposited data

How the results depend on the processing

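No paired analysis was possible because the table holds 1 column per condition, and no replicate could be left out for the same reason. Of the alternatives' values 62 stayed within 1.5 times (counts) or within the interval of the reported value (medians and percentages) and 42, given here, moved; none changed sign. Medians here are over the 50 members that passed the minimum. Equal medians were taken over genes above 0. Members lower after 2 h DRB, 44 as deposited, numbered 16 with a pseudocount of 10, 14 with equal medians and 8 with quantile normalization, beside 7.34%, 23.1% and 6.38% of all genes. Quantile normalization left 28 lower after 5 h DRB (16.2% of all genes), 35 after 1 h and 30 (17.3%) after 2 h triptolide. Within 1.5 times, 50, 50 and 49 lower after 5 h DRB and 1 h and 2 h triptolide became 34, 34 and 34 with a pseudocount of 10, and 35, 43 and 40 with equal medians. Members higher, 0 as deposited, numbered 1, 1 and 2 with equal medians (2 h DRB, 5 h DRB, 2 h triptolide; 13.1%, 11.5% and 11.5% of all genes) and 1, 2 and 4 with quantile normalization (5 h DRB, 1 h and 2 h triptolide; 14.9%, 18.3% and 16.6%). The median log2 difference after 2 h DRB, -1.84, was -2.13 and -0.78 with pseudocounts of 0.1 and 10, -0.22 with equal medians and -0.34 with quantile normalization. That of all genes was -2.12, -0.30, -0.25 and -0.02 under these 4 settings. After 5 h DRB, -3.59 became -6.15, -1.21, -2.93 and -1.26 under the same 4 settings. After 1 h triptolide, -3.79 became -6.93 and -1.21 with the pseudocounts and -1.60 with quantile normalization. After 2 h triptolide, -3.70 became -6.46, -1.21, -3.15 and -1.48. Without the gene with most reads, SR genes kept 0.979% after 5 h DRB, 0.1105% after 1 h and 0% after 2 h triptolide. On the same basis hnRNP genes kept 26.1%, 1.83%, 0.759% and 1.81% over the 4 drug columns, Sf3 genes 31.98% and 0% after 2 h and 5 h DRB and 0% after 2 h triptolide, and Snrp genes 14.4% and 2.75% after 2 h and 5 h DRB. Sums of reads per kb gave 18.5% for SR and 34.1% for Sf3 genes after 2 h DRB, and 0.956% for Sf3 and 2.12% for hnRNP genes after 5 h. Inside wide intervals, SR genes at 2 h triptolide gave 0.0399% by reads per kb and Snrp genes at 1 h triptolide 0.576% without the gene with most reads. The cause was not tested. Only 118 to 321 net reads over all members stand behind the last 3 drug columns.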
